A study of Mus musculus with 24 samples.

Results

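The 10 genes described here encode calmodulin-dependent protein kinases of the mouse. They are the kinase kinases Camkk1 and Camkk2, the CaMKI genes Camk1, Camk1d and Camk1g, Camk4, the CaMKII subunit genes Camk2b, Camk2d and Camk2g, and Camkv, which encodes a kinase-like protein. They were chosen by name from the 55471 genes of the count table, and Camk2a was left out because the Cre transgene carries its locus. Hippocampal RNA of 12 female mice of 3 to 6 months (C57BL/6 in the labels, C57BL/6J in the methods of the study) was sequenced, with 3 mice in each of 4 groups and 1 library per mouse. CBP-ifKOs carried floxed alleles of Crebbp, the gene of the coactivator and acetyltransferase CBP, and a CaMKIIα-creERT2 transgene. Their control littermates lacked the transgene, and every mouse received 5 intragastric doses of tamoxifen at 20 mg/mL in corn oil. Each genotype was housed in a standard cage (SC) or in environmental enrichment (EE), which was given for 1 month in large boxes. The Camk2a promoter drives Cre in excitatory neurons of the forebrain, so the other cells of the hippocampus keep an intact gene, and in this bulk tissue fewer cells of a type and less RNA per cell cannot be told apart.

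When calcium enters a neuron it binds calmodulin, and the complex switches on this family of serine/threonine kinases. The kinase kinases phosphorylate CaMKI, CaMKIV and the energy sensor AMPK, CaMKIV acts in the nucleus on CREB and its coactivators, and CaMKII is a large holoenzyme of the postsynapse that is needed for long-term potentiation. CBP is itself a coactivator of CREB, so these kinases stand upstream of the protein that was removed.

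The libraries held between 26874015 and 27971488 counts in control mice and between 28582210 and 37448388 in CBP-ifKOs. None of the 148570 nonzero counts of the CBP-ifKO libraries was odd, whereas 54.0% to 55.1% of those in each control library were, and dividing the former by 2 changed no call of the 10 genes. As a check of the labels, Crebbp fell from 75.5 ± 5.78 to 50.7 ± 0.797 normalized CPM in SC and from 73.0 ± 3.79 to 46.5 ± 1.89 in EE (SD, n = 3). One EE-housed control library stood apart in choroid plexus markers, whose summed level was 1245 normalized CPM in replicate 1 of that group against 35.1 to 61.8 in the other 11. Normalized CPM are counts scaled to the library size after TMM normalization. A gene is said to have risen or fallen where its adjusted p was below 0.05 in edgeR's quasi-likelihood test, adjusted over all genes tested. Since nothing in the labels says more about the origin of the replicates than that each is a mouse, p-values measure the spread between these mice.

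All 10 genes passed the filter on low counts in every comparison, with between 398 (Camk4) and 50816 (Camk2b) counts per library. Both extremes are from CBP-ifKO libraries, whose even counts may be doubled, and the lowest Camk4 count there was 199 after division by 2. Per kilobase of counted exon, the levels in SC-housed control mice ran from 239 ± 18.7 normalized CPM for Camkv to 2.75 ± 0.363 for Camk2d (SD, n = 3). The order between them was Camk2b (152), Camkk1 (69.8), Camk1d (34.5), Camk2g (29.1), Camkk2 (15.1), Camk1g (12.7), Camk1 (8.08) and Camk4 (5.49), in mean normalized CPM per kilobase. The single mice of neighbours in that order did not overlap, except for Camk1d and Camk2g. Camkv and Camk2b thus lay above 99.6% and 99.1% of the 18251 genes retained, and Camk2d above 44.7%. In SC-housed CBP-ifKOs, Camk2g stood above Camk1d and Camk1 above Camk1g, each pair with overlapping mice.

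Between genotypes, the kinase kinases, Camk1g and Camkv were lower in CBP-ifKOs under both housing conditions. In the 6 SC-housed mice, 4 of the 10 genes fell and 0 rose, against 4.02% of all 17532 genes tested that fell and 1.51% that rose. In the 6 EE-housed mice, 6 fell and 0 rose, against 3.53% and 1.03% of 17625 genes. DESeq2, and edgeR without the filter on low counts, each called 7 of the 10 in SC and 8 in EE, with Camk2d higher in both. Over all genes, edgeR called 968 in SC and 805 in EE with the filter, and 1512 and 1677 without it. DESeq2 called 1296 in EE, and in SC it lay within the 958 to 1512 of the alternatives that kept all mice. In the main test Camk1g, Camkk1, Camkk2 and Camkv fell in both housing conditions, as did 2.35% of the 17250 genes tested in both. The median log2 fold change of the 10 genes was -0.33 in SC and -0.43 in EE, where the medians of all genes tested were -0.0019 and 0.014. Camk1g, Camk4, Camkk1, Camkk2 and Camkv are also on a list of CBP-dependent genes that the study drew up in part from these SC-housed mice, so their change in SC is not independent evidence of its direction. The EE-housed mice did not enter that list.

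**Figure D1:**
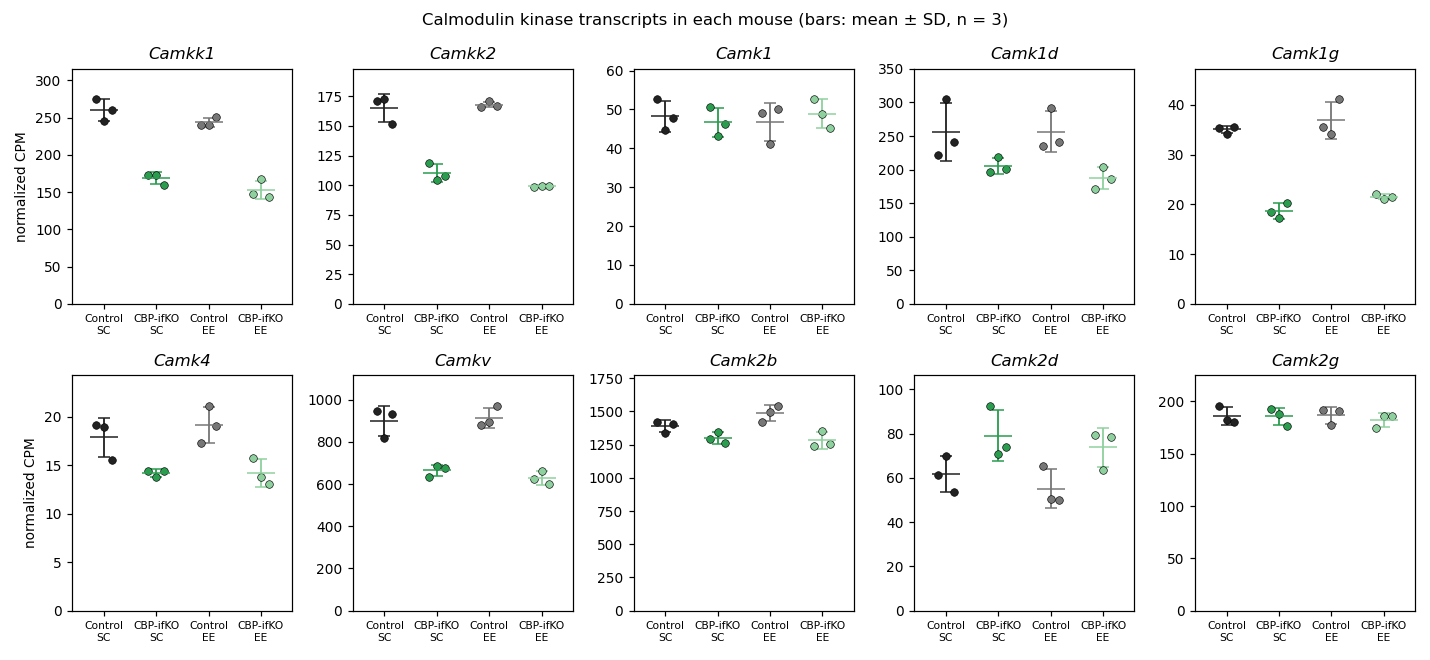
Normalized CPM of each gene in each mouse (points), with the mean and SD of 3 mice (bars), by genotype and housing, each panel on its own axis from 0. For Camkk1, Camkk2, Camk1g, Camk1d and Camkv all 6 control mice lie above all 6 CBP-ifKOs, while the groups overlap for Camk1 and Camk2g and Camk2d is higher on average in CBP-ifKOs.

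The single mice gave the same picture. In SC the 3 CBP-ifKOs lay below the 3 control mice for 6 of the 10 genes (13.8% of all genes tested) and above them for 1, Camk2d (12.1%). In EE they lay below for 7 (13.9%) and above for 0 (11.4%). For 5 genes, which were Camkk1, Camkk2, Camk1d, Camk1g and Camkv, all 6 control mice lay above all 6 CBP-ifKOs, as was the case for 5.35% of 18251 genes.

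Stretches of 250 bases before the annotated start of 3 of the 4 genes that fell in both housing conditions are shown because CREB, to which CBP binds, recognizes the cAMP response element (CRE), TGACGTCA, or its shorter form TGACG. The sequences are from RefSeq (GRCm38.p6), written 5′ to 3′ on the strand of the gene, with matches to TGACG on either strand in capitals. The window of Camkv lies almost wholly inside its counted gene and is not printed.
Camkk1, chr11:73018738-73018987, plus strand: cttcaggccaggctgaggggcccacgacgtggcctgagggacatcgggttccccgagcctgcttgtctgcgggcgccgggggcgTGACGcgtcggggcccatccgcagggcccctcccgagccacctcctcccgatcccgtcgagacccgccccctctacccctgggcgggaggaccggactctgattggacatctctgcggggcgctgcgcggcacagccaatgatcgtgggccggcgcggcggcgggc
Camkk2, chr5:122779411-122779660, minus strand: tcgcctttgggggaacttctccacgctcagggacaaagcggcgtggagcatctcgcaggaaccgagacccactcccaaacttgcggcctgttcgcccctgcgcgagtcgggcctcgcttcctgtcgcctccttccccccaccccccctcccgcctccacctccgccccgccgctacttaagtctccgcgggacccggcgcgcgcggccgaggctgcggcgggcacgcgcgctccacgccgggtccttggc
Camk1g, chr1:193370283-193370532, minus strand: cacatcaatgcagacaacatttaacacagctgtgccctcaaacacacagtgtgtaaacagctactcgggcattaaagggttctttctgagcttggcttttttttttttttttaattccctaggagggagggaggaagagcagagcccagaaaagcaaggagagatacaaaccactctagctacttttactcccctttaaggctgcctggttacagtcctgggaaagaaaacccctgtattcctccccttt
The Camkk1 window holds TGACG once, beginning 166 bases before the start, and the other printed windows hold no match. The first 2 windows are rich in G and C (74.4% and 72.4%), whereas that of Camk1g, at 44.8%, is below the median of all windows (52.4%). Camk4 was left out of this search and RefSeq held no window for Camk2g, so windows were taken for 8 of the 10 genes. There were 9 windows in all because Camk1d has 2. Those of Camk2b, Camk2d and Camkv and the second of Camk1d, 4 of the 9, lie wholly or almost wholly inside the counted gene. TGACG was found in 2 of the 9, Camkk1 and Camk1, and in 17.8% of all 32851 windows of this length, and TGACGTCA was found in 0 of the 9 and in 1.55% of all windows. Every TGACGTCA also holds TGACG. Camk1, whose window holds the element 185 bases before its start, did not pass the test in either housing condition, and the absence of a match says only that these letters are not in this window.

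Camkk1 (ENSMUSG00000020785, chromosome 11 from 73019008 to 73042073 of GRCm38) encodes the kinase kinase CaMKKα. Its levels in SC were 275, 245 and 261 normalized CPM in the control mice and 173, 174 and 160 in CBP-ifKOs, and in EE they were 240, 241 and 251 against 147, 167 and 144. The lowest control mouse of the 12 thus stood well above the highest CBP-ifKO. Camkk1 fell by 35.1% in SC (log2 fold change -0.62, SE 0.059, edgeR adjusted p = 1.55e-04) and dropped by 37.0% in EE (-0.67, SE 0.068, adjusted p = 5.39e-04 from edgeR).

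Camkk2 (ENSMUSG00000029471, chromosome 5 from 122731170 to 122779409) encodes CaMKKβ, the kinase kinase that also activates AMPK. Levels in SC were 171, 173 and 152 normalized CPM in control mice and 119, 105 and 108 in CBP-ifKOs, and those in EE were 166, 171 and 167 against 98.3, 99.4 and 99.6. The 3 EE-housed CBP-ifKOs held the lowest values of all 12 mice. Camkk2 fell by 33.1% in SC (log2 fold change -0.58, SE 0.067, edgeR adjusted p = 7.18e-04) and dropped by 40.7% in EE (-0.75, SE 0.054, adjusted p = 6.52e-05 from edgeR). The summed level of both kinase kinases went from 425 ± 17.8 to 279 ± 11.99 normalized CPM in SC and from 412 ± 5.86 to 252 ± 12.7 in EE (SD, n = 3). Camkk1 made up 82.2 ± 1.42% of their summed level per kilobase in SC-housed control mice and 80.9% to 81.8% in the other 3 groups.

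The CaMKI genes did not move together. Camk1g (ENSMUSG00000016179, chromosome 1 from 193346346 to 193370298) encodes CaMKIγ, a membrane-anchored form that is enriched in neurons, and had the largest genotype change of the 10 genes in SC and, close to Camkk2, in EE. It stood at 35.4, 34.2 and 35.6 normalized CPM in SC-housed control mice and at 18.5, 17.2 and 20.3 in CBP-ifKOs, and at 35.5, 34.1 and 41.1 against 22.0, 21.1 and 21.5 in EE. All 6 CBP-ifKOs lay far below all 6 control mice. Camk1g fell by 46.7% in SC (log2 fold change -0.91, SE 0.076, edgeR adjusted p = 8.37e-05) and dropped by 41.2% in EE (-0.77, SE 0.084, adjusted p = 7.49e-04 from edgeR).

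Camk1d (ENSMUSG00000039145, chromosome 2 from 5293457 to 5714515) encodes CaMKIδ and was the most abundant CaMKI transcript per kilobase. Its values in SC were 222, 305 and 241 normalized CPM in control mice and 196, 219 and 200 in CBP-ifKOs, and in EE 236, 292 and 242 against 171, 204 and 186. The control mice spread widely. Replicate 2 was highest in every group, CBP-ifKOs included, and the highest CBP-ifKO lay just below the lowest control mouse in SC. The log2 fold change in SC was -0.32 (SE 0.098) with an edgeR adjusted p of 0.0804. Leaving out control replicate 1 gave -0.41 and an adjusted p of 0.0178. In EE Camk1d fell by 26.5% (log2 fold change -0.45, SE 0.089, edgeR adjusted p = 0.0177), a call that was lost without CBP-ifKO replicate 1 (adjusted p = 0.0730) or 3 (adjusted p = 0.0927). DESeq2 and the fit without a filter on low counts called it in SC too, with adjusted p-values of 0.00932 and 2.91e-04. So did edgeR with the replicate number as a block (adjusted p = 0.0149).

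Camk1 (ENSMUSG00000030272, chromosome 6 from 113334124 to 113343984) encodes CaMKIα. It was measured at 52.6, 44.7 and 47.7 normalized CPM in SC-housed control mice against 50.7, 43.1 and 46.3 in CBP-ifKOs, and at 49.2, 41.1 and 50.0 against 52.6, 48.8 and 45.1 in EE. The 4 groups overlapped throughout. Its log2 fold change was -0.049 in SC (95% interval from -0.22 to 0.12, edgeR adjusted p = 0.774) and 0.071 in EE (from -0.12 to 0.27, adjusted p = 0.714 from edgeR), and 232 of its exonic bases overlap Ogg1 on the opposite strand, whose reads cannot be told apart if strand was not used. The share of Camk1g in the summed CaMKI level per kilobase was 23.1 ± 2.44% in control mice and 16.1 ± 1.45% in CBP-ifKOs in SC, and 24.0 ± 2.81% against 19.01 ± 1.23% in EE (SD, n = 3).

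Camk4 (ENSMUSG00000038128, chromosome 18 from 32934931 to 33191228) encodes the nuclear kinase CaMKIV, which phosphorylates CREB, and was the member with the fewest counts. Its levels in SC were 19.2, 18.9 and 15.6 normalized CPM in control mice and 14.4, 13.8 and 14.4 in CBP-ifKOs, and in EE 17.3, 21.1 and 19.04 against 15.8, 13.8 and 13.03. The genotypes did not overlap within a housing condition, although SC-housed control replicate 3 lay below the highest EE-housed CBP-ifKO. The log2 fold change was -0.33 in SC (SE 0.095, edgeR adjusted p = 0.0680) and -0.42 in EE (SE 0.11, adjusted p = 0.0466 from edgeR), so that it fell in EE only just inside the threshold. That call was lost without control replicate 2 or 3 (adjusted p = 0.0924 and 0.136) or CBP-ifKO replicate 2 or 3 (0.132 and 0.176). In SC a call was made without control replicate 3 (adjusted p = 0.0401), with DESeq2 (0.0485) and without the filter on low counts (0.0312). In the annotation, 72 of its exonic bases overlap 2310026I22Rik on the opposite strand.

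Camkv (ENSMUSG00000032936, chromosome 9 from 107935674 to 107949691) encodes a calmodulin-binding protein that resembles the kinases but lacks catalytic activity and is found at dendritic spines. It was measured at 946, 818 and 932 normalized CPM in SC-housed control mice and at 633, 684 and 675 in CBP-ifKOs, and at 880, 893 and 969 against 624, 663 and 600 in EE. All 6 CBP-ifKOs stood below all 6 control mice, and Camkv remained the member with the highest level per kilobase in all 4 groups. Camkv fell by 26.1% in SC (log2 fold change -0.44, SE 0.061, edgeR adjusted p = 0.00233) and dropped by 30.8% in EE (-0.53, SE 0.061, adjusted p = 9.26e-04 from edgeR).

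None of the CaMKII subunit genes was called by the edgeR test on the 6 mice of a housing condition, while some other fits called Camk2b or Camk2d. Camk2b (ENSMUSG00000057897, chromosome 11 from 5969644 to 6066362) encodes the β subunit, which binds actin in the spine. Its levels in SC were 1422, 1336 and 1408 normalized CPM in control mice and 1295, 1345 and 1260 in CBP-ifKOs, and in EE 1421, 1496 and 1540 against 1237, 1355 and 1257. The genotypes overlapped in SC and were apart in EE. The log2 fold change was -0.096 in SC (SE 0.048, edgeR adjusted p = 0.294) and -0.20 in EE (SE 0.055, adjusted p = 0.0639 from edgeR), and it was called in EE by DESeq2 (adjusted p = 0.0130), without the filter on low counts (0.0196) and with all 12 mice in the fit (0.0171).

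Camk2d (ENSMUSG00000053819, chromosome 3 from 126596302 to 126846326) encodes the δ subunit, the main form of the heart, and was the member whose values leaned upward. In SC it stood at 61.5, 70.1 and 53.8 normalized CPM in control mice and at 92.4, 70.8 and 74.0 in CBP-ifKOs, and in EE at 65.2, 50.3 and 50.1 against 79.5, 63.4 and 78.3. The genotypes were barely apart in SC and overlapped in EE, where control replicate 1 lay above the lowest CBP-ifKO. The log2 fold change was 0.36 in SC (SE 0.11, edgeR adjusted p = 0.0811) and 0.43 in EE (SE 0.11, adjusted p = 0.0582 from edgeR). Leaving out 1 mouse brought it past the threshold in SC without control replicate 2 (adjusted p = 0.0206) and in EE without control replicate 1 (0.00872) or CBP-ifKO replicate 2 (0.0408). DESeq2 called it in both, with adjusted p-values of 0.0105 in SC and 0.00320 in EE, as did the fit without the filter (0.00107 and 4.10e-06).

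Camk2g (ENSMUSG00000021820, chromosome 14 from 20734875 to 20794088), the gene of the γ subunit, was measured at 195, 182 and 181 normalized CPM in SC-housed control mice and at 193, 188 and 177 in CBP-ifKOs, and at 192, 177 and 191 against 175, 186 and 186 in EE. Its groups overlapped fully. The log2 fold change was -0.0015 in SC (95% interval from -0.12 to 0.12, edgeR adjusted p = 0.990) and -0.023 in EE (from -0.16 to 0.11, adjusted p = 0.883 from edgeR). Of the summed level per kilobase of Camk2b, Camk2d and Camk2g, the δ subunit took 1.496 ± 0.233% in control mice and 2.01 ± 0.298% in CBP-ifKOs in SC, and 1.27 ± 0.235% against 1.91 ± 0.304% in EE (SD, n = 3).

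**Figure D2:**
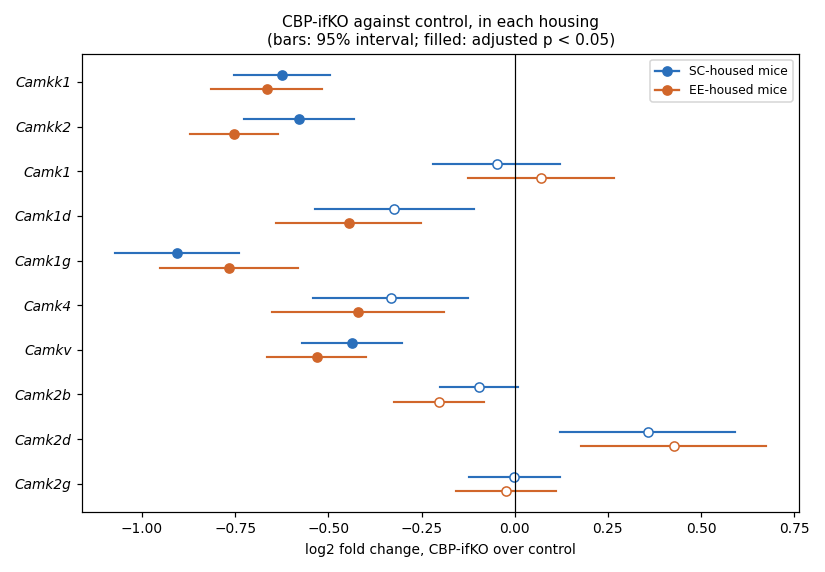
Log2 fold change of each gene between CBP-ifKOs and control littermates, in SC-housed (blue) and EE-housed (orange) mice, with 95% intervals as bars and filled points where the adjusted p was below 0.05. The estimates run from -0.91 for Camk1g in SC to 0.43 for Camk2d in EE, and those of Camk1 and Camk2g lie near 0.

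Averaging the genotype change over both housing conditions, with all 12 mice in the fit, resolved the smaller changes. Of the 10 genes, 7 fell and 1 rose, against 10.3% and 6.64% of the 18251 genes tested. The average uses the same mice as the comparisons above and adds no animals. Camk2b fell by 10.1% (log2 fold change -0.15, SE 0.035, edgeR adjusted p = 0.00687), Camk1d fell by 23.6% (-0.39, SE 0.075, adjusted p = 0.00208) and Camk4 fell by 23.2% (-0.38, SE 0.072, adjusted p = 0.00185). Camk2d rose by 30.8% (0.39, SE 0.089, edgeR adjusted p = 0.00725). For Camk1 and Camk2g the averages were 0.0069 (95% interval from -0.13 to 0.14) and -0.016 (from -0.10 to 0.067), so a change of more than 0.14 on the log2 scale lay outside both intervals. All 8 calls held when any 1 of the 12 mice was left out.

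The summed markers of pyramidal cells and of all neurons were also lower in CBP-ifKOs. The summed level of 6 markers of CA1 and CA3 pyramidal cells was 910 to 1022 normalized CPM in SC-housed control mice and 772 to 775 in CBP-ifKOs, a difference of -18.5% between the means, and 917 to 1027 against 760 to 788 in EE, a difference of -20.9%. Of these 6 markers, 3 fell in SC and 3 in EE, where 4.02% and 3.53% of all genes fell. Summed over 3 markers of all neurons, Snap25, Syt1 and Rbfox3, the level was 4579 to 4806 against 4068 to 4138 in SC (-12.2%) and 4621 to 4807 against 3974 to 4224 in EE (-12.6%), with 2 of the 3 lower by the test in each. Markers of interneurons, astrocytes and microglia were summed at -8.52%, -7.39% and -6.17% in SC and at -6.95%, -10.2% and -11.0% in EE, and none of their groups overlapped within a housing condition. By the test, 1 of the 6 interneuron markers fell in SC and 0 in EE, and 0 of the 5 astrocyte and 0 of the 5 microglia markers changed in either, where at an unadjusted p under 0.05 edgeR gave 2 of the interneuron markers in EE and 1 astrocyte and 1 microglia marker in SC and 1 and 2 in EE. The dentate granule markers summed to 329 to 350 against 317 to 354 in SC and to 319 to 419 against 292 to 324 in EE, and of these 6 markers 2 fell and 1 rose in SC and 2 fell in EE. Oligodendrocyte markers overlapped in both. Endothelial markers summed to 141 to 149 against 122 to 136 in SC and to 121 to 139 against 122 to 133 in EE. Choroid plexus markers summed to 46.7 to 53.1 in SC-housed control mice against 35.2 to 38.4 in CBP-ifKOs. In EE, leaving out the control library rich in them gave 7 of the 10 kinase genes called instead of 6, with Camk2d added. Every marker of these lists was above 0 in every library. The part of cell composition in the changes of the kinase genes was not tested.

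No gene of the family passed the test for EE in either genotype. In control mice 0 of the 10 genes were called between EE and SC, at an edgeR adjusted p below 0.05 and an absolute log2 fold change above 0.5, as did 0% of the 18251 genes. None had an unadjusted p below 0.05, against 768 of all genes, and DESeq2 called 0 of the 10 and 6 genes in all. The estimates lay between -0.16 for Camk2d and 0.098 for Camk4 on the log2 scale, the EE-housed and SC-housed mice overlapped for every gene (9.11% of all genes did not), and apart from that of Camk2d (from -0.43 to 0.11) no 95% interval reached beyond the 0.31 of Camk4.

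In CBP-ifKOs 0 of the 10 genes passed the test either, where 0.011% of all genes did, and DESeq2 called 0 of the 10 and 22 of all genes. Before adjustment, 3 of the 10 and 1567 of all genes had an edgeR p below 0.05. They were Camkk2 with a log2 fold change of -0.16 (SE 0.061, adjusted p = 0.494), Camk1g with 0.20 (SE 0.080, adjusted p = 0.5002) and Camkk1 with -0.14 (SE 0.064, adjusted p = 0.548). For 2 genes the housing groups did not overlap, with the EE-housed CBP-ifKOs below the SC-housed ones for Camkk2 and above them for Camk1g, as for 15.9% of all genes in either direction.

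**Figure D3:**
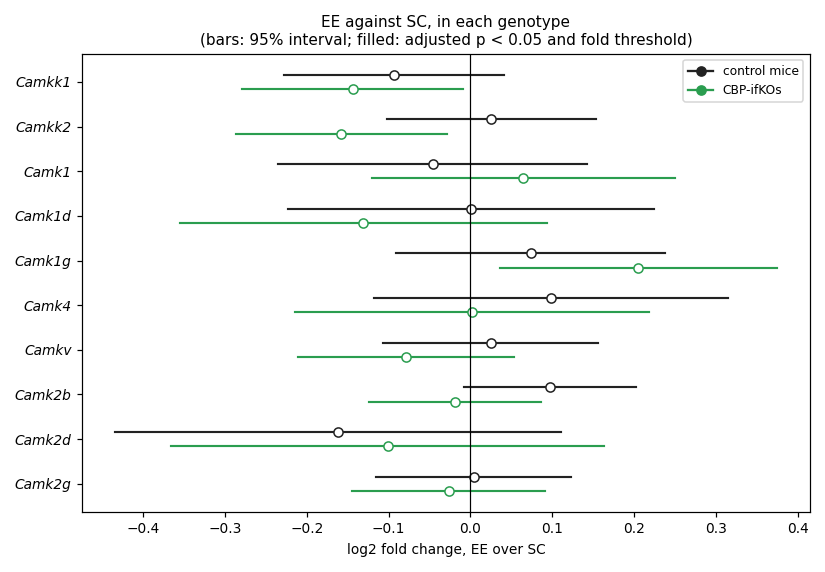
Log2 fold change of each gene between EE and SC, in control mice (black) and CBP-ifKOs (green), with 95% intervals as bars. No point is filled because 0 of the 10 genes passed the test in either genotype, and the intervals of Camkk1, Camkk2 and Camk1g in CBP-ifKOs do not reach 0 before adjustment.

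Whether the genotype change differed between SC and EE was tested as an interaction over the 12 mice. It was called for 0 of the 10 genes and for 0% of all genes with edgeR, and DESeq2 called 0 of the 10 as well. At an unadjusted p below 0.05 there was 1 of the 10, against 574 of all genes. This was Camkk2, whose genotype change was more negative in EE by 0.18 on the log2 scale (interaction -0.18, SE 0.085, edgeR adjusted p = 0.9998). For the other 9 genes the interaction lay between -0.13 (Camk1d) and 0.13 (Camk1g). The calls of Camk1d and Camk4 in EE but not in SC are therefore not shown to differ between housing conditions, and their interactions were -0.13 (95% interval from -0.45 to 0.19) and -0.097 (from -0.40 to 0.21). The environment and interaction terms tested together called 0 of the 10 genes and 0.0329% of all genes. At an unadjusted p below 0.05 the edgeR test held 1 of the 10, Camk1g, and 1254 of all genes, and DESeq2 called 0 of the 10.

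The genes around the kinases were described with a list of 37 others of the pathway. In SC 14 of the 37 fell and 1 rose, where 4.02% of all genes tested fell and 1.51% rose. In EE 11 fell and 1 rose (3.53% and 1.03% of all genes), and averaged over housing 17 fell and 1 rose (10.3% and 6.64%). The medians of the list were -0.15, -0.17 and -0.16 on the log2 scale. Calm3, which encodes calmodulin, fell from 1431 ± 57.2 to 1181 ± 29.3 normalized CPM in SC (log2 fold change -0.28, edgeR adjusted p = 0.00740) and from 1543 ± 135 to 1198 ± 80.5 in EE (-0.36, adjusted p = 0.0181 from edgeR).

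Among proteins that hold calmodulin without being enzymes, 3 of 4 fell in SC and 2 of 4 in EE, against 4.02% and 3.53% of all genes. Nrgn, the gene of neurogranin, which releases calmodulin in dendritic spines, was at 819, 698 and 775 normalized CPM in SC-housed control mice and 530, 597 and 565 in CBP-ifKOs, and at 796, 784 and 913 against 513, 564 and 576 in EE. All 6 CBP-ifKOs were below all 6 control mice. Its log2 fold change was -0.44 in SC (SE 0.066, edgeR adjusted p = 0.00322) and -0.58 in EE (SE 0.072, adjusted p = 0.00150 from edgeR).

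The CaMKII inhibitor genes moved in opposite directions. Camk2n1 fell from 843 ± 36.7 to 659 ± 55.8 normalized CPM in SC (log2 fold change -0.36, SE 0.063, edgeR adjusted p = 0.00808) and from 811 ± 78.7 to 586 ± 42.1 in EE (-0.46, SE 0.079, adjusted p = 0.00858 from edgeR). Camk2n2 was the gene of the list that rose. It stood at 43.6, 40.8 and 45.3 normalized CPM in SC-housed control mice and 60.1, 58.7 and 55.4 in CBP-ifKOs, and at 46.3, 38.4 and 43.4 against 60.4, 58.8 and 62.0 in EE, so that all 6 CBP-ifKOs were above all 6 control mice. Its log2 fold change was 0.43 in SC (SE 0.063, edgeR adjusted p = 0.00302) and 0.51 in EE (SE 0.076, adjusted p = 0.00439 from edgeR).

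Of 7 genes of calcineurin, the calcium-dependent phosphatase, and its regulators, 1 fell in SC and 2 in EE (4.02% and 3.53% of all genes). These were the regulatory subunit gene Ppp3r1 in both (log2 fold changes -0.27 and -0.33), which shares 462 exonic bases with Wdr92 on the same strand, and the catalytic subunit gene Ppp3ca in EE (-0.30, edgeR adjusted p = 0.0175). Of 13 substrates and downstream factors, 4 fell in SC and 2 in EE, against 4.02% and 3.53% of all genes. The CREB coactivator gene Crtc1 (-0.24 and -0.42) and the calmodulin-binding transcription factor gene Camta2 (-0.25 and -0.41) fell in both, and the class II deacetylase gene Hdac5 had -0.23 in SC, where it fell, and -0.24 in EE, where its edgeR adjusted p was 0.0526. Among the postsynaptic binding partners of CaMKII, the scaffold gene Shank3 fell in both housing conditions (-0.35 and -0.41), and 271 of its exonic bases overlap a gene on the opposite strand. The remaining calmodulin kinase genes, Camk2a and Pnck, and the CaM kinase phosphatase genes Ppm1e and Ppm1f passed the test in 0 of 4 cases in SC and 0 of 4 in EE.

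**Figure D4:**
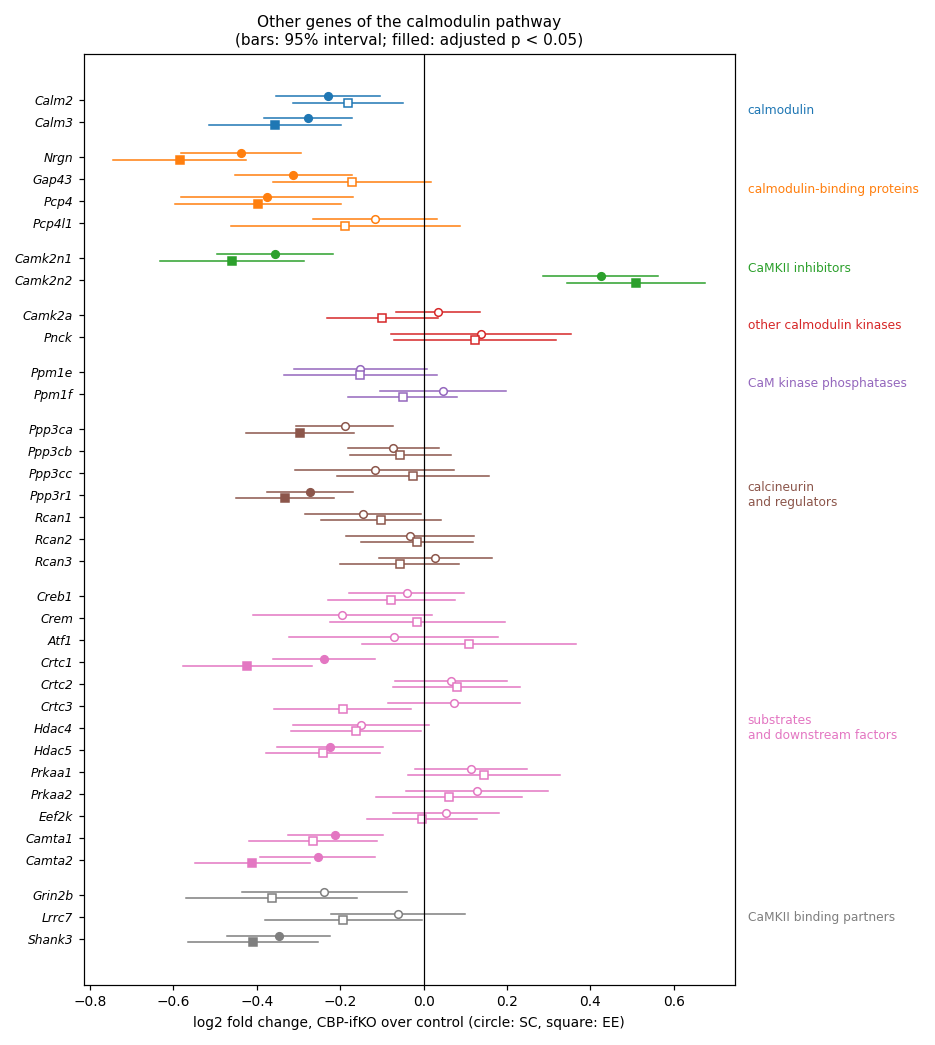
Log2 fold change between CBP-ifKOs and control littermates of other pathway genes, grouped by role, in SC (circles) and EE (squares), with 95% intervals as bars and filled symbols where the adjusted p was below 0.05. Camk2n2, at 0.43 and 0.51, is the single filled symbol pair to the right of 0.

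For the 4 kinase genes that fell in both housing conditions, the genes with the most similar course over the 12 mice were listed by the root mean square difference of log2 CPM after centring. For Camkk1, whose own SD over the mice was 0.35, they were Dpf1 (0.068), Sowaha (0.075) and Rasgef1a (0.080). Crebbp itself lay closest to Camkk2 (0.073, against an SD of 0.36), followed by Egfl6 (0.089) and Tunar (0.093). Camk1g, with an SD of 0.45, was followed by Arhgdib (0.11), Sept9 (0.12) and Kcnip3 (0.12) at a larger distance. For Camkv, with an SD of 0.27, the closest were Ppp1r9b (0.043), Kcnip2 (0.048) and Fbxl16 (0.052).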

How the data were processed

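Hippocampal RNA of 12 mice was sequenced as 50 bp single-end reads, in 2 runs per mouse that were merged before counting. The authors trimmed reads with Trim Galore 0.6.4, aligned them with STAR 2.6.1 to mm10 (GRCm38), kept alignments above a mapping quality limit and counted reads on exons with Rsubread. The deposited table holds raw, unnormalized counts for every gene, next to an annotation value (not a measurement), the exonic length that the authors' counter reports, by which counts were divided for levels per kilobase. Whether counting used strand is not given in the sources used here. Groups came from the sample labels. Symbols were matched for 55144 of 55471 genes, and positions and exon overlaps come from GENCODE (GRCm38).

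Tests were run in edgeR 4.0.16 under R 4.3.3 (filterByExpr, TMM, quasi-likelihood F test, Benjamini-Hochberg over all genes retained), on 6 mice for the genotype in SC and in EE and on all 12, with 1 coefficient per group, for the other tests. An absolute log2 fold change above 0.5 was also required in the tests of EE within a genotype and of both terms together. Bars and ± are SD over 3 mice, and intervals are 95% intervals of the fit. Log2 CPM used a prior count of 2. The 10 genes, the 37 pathway genes and the 45 cell type markers were chosen with earlier results of these data known. Every member was named whatever its values, with the 3 genes closest to each member called in both genotype comparisons. At most 12 pathway genes were taken, smallest edgeR p in a genotype comparison first, the average over housing included. Pcp4 came after these 12, although it fell in both housing conditions (edgeR adjusted p = 0.0397 in SC and 0.0312 in EE). Camk2a, Pnck, Ppm1e and Ppm1f were named as well, because 0 of them passed. Alternatives were DESeq2 1.42.0, its size factors, no filter on low counts, CBP-ifKO counts divided by 2, the replicate number as a block, other mice in the fit, no fold threshold and leaving out each mouse in turn. Some genes of the pathway list are not reported here. The procedure was tested on simulated data with known changes. Libraries of a group differed by more than sampling noise (chi-square per degree of freedom of at least 2.69, CBP-ifKO counts divided by 2).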

Additional observations from a re-analysis of the deposited data

How the results depend on the processing

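The 10 genes gave 920 alternative values, of which 854 kept their direction and side of the threshold, 6 lost a call, 19 gained one and 41 changed sign. Camk1g, Camkk1, Camkk2 and Camkv kept their genotype calls in SC and EE under all alternatives. The values that changed sign were all from comparisons in which that gene was not called. The number of the 10 genes called in SC moved from 4 to 7 with DESeq2 and also to 7 without a filter on low counts, and in EE from 6 to 8 with either. Leaving out 1 mouse gave 4 to 5 in SC, 4 (without CBP-ifKO replicate 3) to 7 in EE, 8 averaged over housing and 0 in each test of EE. With the replicate block, 6 of the 10 genes were called in SC (Camk1d, adjusted p = 0.0149, and Camk2d, 0.0415, added) and 7 in EE (Camk2d, 0.00620, added), 10 genes in all changed with EE in CBP-ifKOs, and Camk4 had -0.0028 there. In none of the 4 pairs of groups did all 3 same-numbered pairs of mice correlate above 0.1. For replicates 1, 2 and 3, the correlations were 0.19, 0.30 and 0.034 between control mice in SC and EE. They were 0.11, 0.12 and 0.034 between genotypes in EE, and 0.074, -0.047 and 0.10 in SC. Between CBP-ifKOs in SC and EE they were -0.043, 0.086 and -0.046. Pairs with different numbers ran from -0.25 to 0.14. Whether same-numbered mice share more than a number was not tested. The counts over all genes moved more. With DESeq2 they were 1296 for genotype in EE (805 in edgeR), 6 for EE in control mice (0), 22 for EE in CBP-ifKOs (2) and 11 for both terms together (6). Without the filter they were 1512 for genotype in SC (968), 1677 in EE, 80 and 121 for EE in control mice and CBP-ifKOs, 110 for the interaction (0) and 114 for both terms. Halved CBP-ifKO counts gave 0 for EE in CBP-ifKOs, all 12 mice in the fit gave 1293 for genotype in EE, and no fold threshold gave 13 for both terms. Leaving out 1 mouse gave 399 (CBP-ifKO replicate 2) to 1908 (control replicate 2) genes for genotype in SC, 285 (control replicate 3; 286 without CBP-ifKO replicate 3) to 1016 in EE, 0 to 3 for EE in control mice, 0 to 6 for EE in CBP-ifKOs and 0 to 7 for both terms. The cause of these moves was not tested. Near 0, Camk2g in SC was 0.0021 with DESeq2 and with its size factors, Camk1 averaged over housing was -0.0057 without the filter, and Camk4 for EE in CBP-ifKOs was -0.0017 with halved counts. Leaving out 1 mouse moved Camk1 from -0.11 to 0.020 in SC, from -0.017 to 0.13 in EE and from -0.035 to 0.039 averaged, and Camk2g from -0.027 to 0.040, from -0.063 to 0.0053 and from -0.035 to 0.0020. For EE in control mice the ranges were -0.099 to 0.038 for Camk1, -0.10 to 0.14 for Camk1d, -0.012 to 0.13 for Camk1g, -0.016 to 0.041 for Camk2g, -0.028 to 0.058 for Camkk2 and -0.038 to 0.064 for Camkv. In CBP-ifKOs they were -0.059 to 0.0076 for Camk2b, -0.17 to 0.027 for Camk2d, -0.061 to 0.0038 for Camk2g and -0.081 to 0.060 for Camk4, and the interaction of Camk2d ran from -0.038 to 0.20. A fit that leaves a group with 2 mice takes its spread from both groups. The depth limits Camk4 most, with as few as 398 counts in a library (199 after division by 2).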
